A study of Mus musculus with 2 samples.

Results

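Costimulation was followed here through 8 genes, namely *Tnfrsf4*, *Tnfrsf9*, *Tnfrsf18*, *Tnfrsf1b* and *Cd27* of the TNF receptor superfamily, the ligand *Tnfsf9*, and the CD28 family activators *Cd28* and *Icos*. They were chosen by gene symbol from 14732 symbols with a value in at least 1 library, and the 8 of 8 were listed in both libraries. CD8+ T cells of OT-I transgenic C57BL/6 mice aged 6-8 weeks, whose T cell receptor recognizes an ovalbumin (OVA) peptide, were cultured for 24 h with that peptide (2.5 ng/mL) plus IL-2 (10 U/mL). They then received a retrovirus carrying Eomes, a T-box transcription factor, with human CD2 as a marker, or the same vector without Eomes as control. Cells positive for human CD2 were sorted 48 h later from either culture and stimulated again with the same peptide and IL-2 for 3 days, at 40000 cells per well. Both cultures thus carry the vector and the sort marker, Eomes is driven by the retrovirus and not by its own gene, and the number of mice behind each culture is not given in the sources used here. A single library was sequenced per condition, so differences could not be checked against replicates and no p-values were computed.

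A T cell needs a signal from its antigen receptor together with a costimulatory signal to divide, survive and make cytokines. CD28 and ICOS bind B7 family ligands and recruit PI3 kinase. The costimulatory TNF receptors, such as OX40 (*Tnfrsf4*), 4-1BB (*Tnfrsf9*) and GITR (*Tnfrsf18*), are induced or raised after activation, bind TNF family ligands and signal through TRAF adaptors to NF-kappaB.

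Expressed genes are those that reached an RPKM of 1 in 1 library or both, 9925 in all. Of these, 5.19% were more than 1.5-fold lower with Eomes, 2.46% were more than 1.5-fold higher, and 7.65% were past 1.5-fold in either direction. RPKM is the number of reads scaled to transcript length and library depth, and 1.5-fold is a log2 ratio of 0.58. Among the 8 genes, 1 (*Tnfrsf4*) was more than 1.5-fold lower, 1 (*Tnfsf9*) was more than 1.5-fold higher, and the other 6 lay within 1.5-fold. All 7 receptors but *Tnfrsf1b* had a log2 ratio under 0, against 50.5% of the expressed genes. The median log2 ratio was -0.42 over the 5 TNF receptors, -0.25 over all 8 genes and -0.0037 over the expressed genes. *Eomes* itself was at 2.47 RPKM (control) and 129.6 RPKM (Eomes), in the direction of the labels. About 19090000 reads stood behind the control library and 19080000 behind the other, depths that were read from the steps between low values. The intervals below are 95% intervals of counting error on reads approximated from that depth, and compare the 2 libraries, not the conditions.

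**Figure D1:**
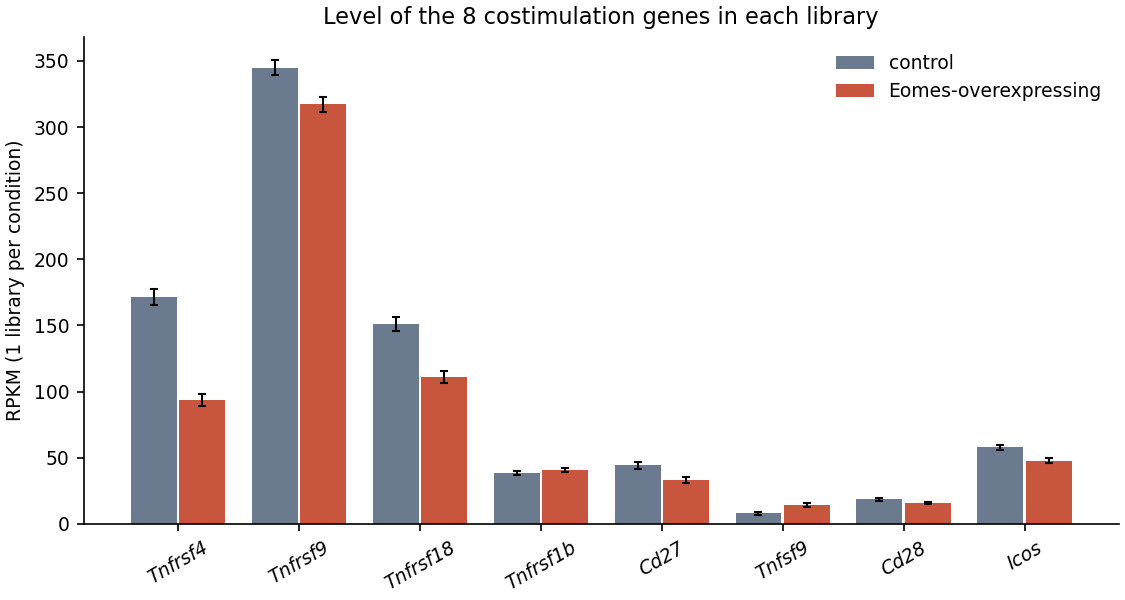
RPKM of the 8 genes (bars) in the control and the Eomes-overexpressing library, with exact 95% Poisson intervals on approximated reads as error bars. *Tnfrsf4* is at 171.3 and 93.5, *Tnfsf9* at 8.05 and 13.9, and *Tnfrsf9* has the highest bars in both libraries.

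*Tnfrsf4*, which encodes OX40, a receptor that prolongs the survival and expansion of activated T cells, reached 171.3 RPKM in the control library and 93.5 RPKM in the Eomes library. It was 1.83-fold lower, a log2 ratio of -0.87 (interval -0.96 to -0.79 from about 3368 and 1838 reads). The whole interval lies past 1.5-fold. Of the 754 expressed genes with a mean RPKM of 100 to 500, only *Ctla4* and *Cd8a*, named after their values were seen, had a lower log2 ratio. Among all expressed genes *Tnfrsf4* was at position 241 from the lowest log2 ratio.

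*Tnfrsf18*, which encodes GITR, reached 151.0 RPKM in the control library and 110.9 RPKM in the Eomes library. Its log2 ratio was -0.45 (interval -0.52 to -0.37), so it was lower but within 1.5-fold. *Tnfrsf4* and *Tnfrsf18* are tandem genes on the plus strand of chromosome 4 of mm10, with starts 12.3 kb apart (156013843 to 156016612 and 156026164 to 156028895). The log2 ratio of *Tnfrsf4* minus that of *Tnfrsf18* was -0.43 (interval -0.54 to -0.32). The order of the pair differed between the libraries: *Tnfrsf4* was at 1.13 times the RPKM of *Tnfrsf18* in the control library and at 0.844 times in the Eomes library. In the annotation, 27.2% of the exon bases of *Tnfrsf18* also belong to an antisense transcript, *Gm16008*, which has no value in the files, and whether the counting used the strand is not given in the sources used here.

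The bases just upstream of the starts of the tandem pair and of *Tnfrsf9*, the most abundant of the receptors, are shown. These genes share a chromosome and a family but differ in log2 ratio. The same holds for *Tnfrsf1b*, whose window is not shown. The starts used for the windows can differ from those of the GENCODE annotation used for gene coordinates. For *Tnfrsf9* the first of its RefSeq starts is shown. Each window shown is 250 bases long, ends 1 base before the RefSeq start (build GRCm38.p6, which is mm10), and is read 5′ to 3′ on the plus strand of chromosome 4. They span chr4:156013445-156013694, chr4:156026072-156026321 and chr4:150919905-150920154. Capitals would mark a match to a searched motif, and there are none.
*Tnfrsf4*: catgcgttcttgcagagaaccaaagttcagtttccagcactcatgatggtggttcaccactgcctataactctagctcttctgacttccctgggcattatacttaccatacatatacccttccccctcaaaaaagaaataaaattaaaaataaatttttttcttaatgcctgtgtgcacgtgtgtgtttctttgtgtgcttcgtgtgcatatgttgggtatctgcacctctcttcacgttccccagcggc
*Tnfrsf18*: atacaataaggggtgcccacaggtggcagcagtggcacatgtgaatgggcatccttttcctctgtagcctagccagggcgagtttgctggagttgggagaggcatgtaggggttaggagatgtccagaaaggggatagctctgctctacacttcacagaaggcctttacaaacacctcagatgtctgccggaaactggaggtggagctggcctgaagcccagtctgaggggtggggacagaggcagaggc
*Tnfrsf9*: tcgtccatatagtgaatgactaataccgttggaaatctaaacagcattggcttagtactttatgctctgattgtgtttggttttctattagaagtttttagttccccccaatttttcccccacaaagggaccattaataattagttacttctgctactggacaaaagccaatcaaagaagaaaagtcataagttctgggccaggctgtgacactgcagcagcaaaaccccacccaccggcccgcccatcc

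The letters searched on both strands were the T-box site AGGTGTGA, its core GGTGTG, which lies inside the former, and a pair of NF-kappaB consensus sites. RefSeq upstream windows were found for 5 of the 8 genes (6 windows, *Tnfrsf9* having 2 starts), and none of these exact motifs occurs in them. The second *Tnfrsf9* window, not shown above, holds ggggatttcc, a close variant of the NF-kappaB sites that was not searched. The *Tnfrsf1b* window holds aggtgt, the opening letters of the T-box site, and the *Tnfrsf18* window holds their reverse complement acacct. These shorter letters were not searched either, and their share over all windows was not counted. Among 32851 windows of the same length, 1.12% hold AGGTGTGA, 16.3% hold GGTGTG, 0.140% hold the more common of the NF-kappaB sites and 0.0852% the other. Each motif is thus absent from most windows, and its absence from these 6 says little. *Tnfsf9*, *Cd28* and *Icos* had no entry. The upstream GC content was 42.8% for *Tnfrsf4* and 56.0% for *Tnfrsf18*.

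*Tnfrsf9*, which encodes 4-1BB, a receptor induced on CD8+ T cells by activation, had the highest level of the 8 genes. It was measured at 345.0 RPKM in the control library and 317.0 RPKM in the Eomes library. The log2 ratio of -0.12 (interval -0.16 to -0.087) is 1.09-fold lower, larger than the counting error and within 1.5-fold. Its gene lies on chromosome 4 from 150914562 to 150946102. The log2 ratio of *Tnfrsf9* was 0.75 above that of *Tnfrsf4* (interval of the difference 0.66 to 0.84). The summed RPKM of the 5 receptors was 749.6 in the control library and 595.1 in the Eomes library. *Tnfrsf9* made up 46.0% of that sum in the control library and 53.3% in the Eomes library, while the share of *Tnfrsf4* was 22.8% and 15.7%.

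*Tnfsf9*, which encodes 4-1BBL, the ligand of 4-1BB, was the only one of the 8 genes more than 1.5-fold higher with Eomes. It lies on chromosome 17 from 57105325 to 57107757. It was measured at 8.05 RPKM in the control library and 13.9 RPKM in the Eomes library, 1.72-fold higher. The log2 ratio of 0.78 rests on about 198 and 341 reads, and its interval of 0.53 to 1.05 reaches under 1.5-fold. At position 124 from the highest log2 ratio, it stood near the top of the expressed genes. The level of the receptor was 42.9 times that of the ligand in the control library and 22.9 times in the Eomes library. In the annotation 14.9% of its exon bases are shared with an opposite-strand transcript, *Gm11110*, which has no value in the files.

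*Cd27* encodes a receptor of naive and memory T cells whose ligand is CD70. It was measured at 44.1 RPKM in the control library and 33.0 RPKM in the Eomes library (chromosome 6 from 125232622 to 125237010), a log2 ratio of -0.42 (interval -0.54 to -0.30). *Tnfrsf1b*, which encodes TNFR2, a receptor for TNF and lymphotoxin-alpha, had an RPKM of 38.3 and 40.7 (chromosome 4 from 145213463 to 145246870). Its log2 ratio was 0.087, and the interval of 0.012 to 0.16 ends close to 0. Levels of the pair were thus in the opposite order in the 2 libraries, *Tnfrsf1b* being at 0.867 times the RPKM of *Cd27* in the control library and at 1.23 times in the Eomes library. The difference of their log2 ratios was 0.51 (interval 0.37 to 0.65), whereas *Tnfrsf18* and *Cd27* differed by -0.024 (interval -0.16 to 0.12).

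*Cd28*, which encodes the main costimulatory receptor of naive T cells, reached 18.4 RPKM in the control library and 15.8 RPKM in the Eomes library (chromosome 1 from 60716800 to 60773359). *Icos*, which encodes the inducible receptor of the same family, had an RPKM of 57.9 and 47.7 (chromosome 1 from 60977927 to 61000320). Both were somewhat lower, with log2 ratios of -0.22 (interval -0.33 to -0.11) and -0.28 (interval -0.35 to -0.21). *Icos* was at 3.14 times the level of *Cd28* in the control library and at 3.01 times in the Eomes library, and the interval of the difference of their log2 ratios (-0.19 to 0.067) includes 0.

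**Figure D2:**
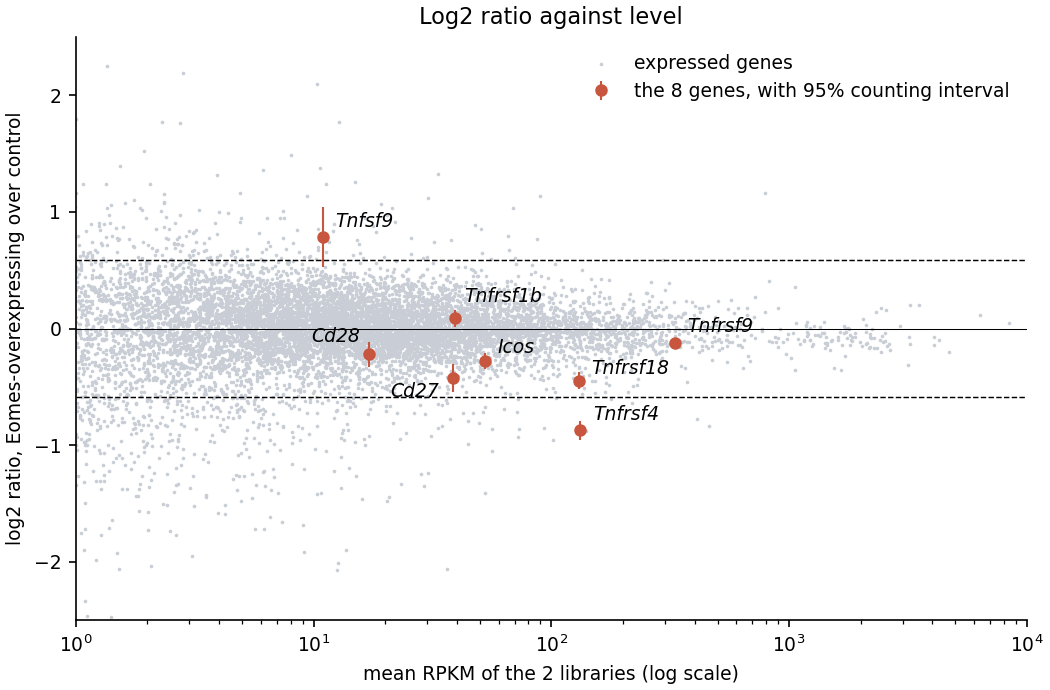
Log2 ratio of Eomes-overexpressing over control (vertical) against the mean RPKM of the 2 libraries (horizontal, log scale) for the expressed genes (grey) and the 8 genes (red, with 95% counting intervals). Dashed lines mark 1.5-fold, genes outside the axes are not drawn, and *Tnfrsf4* at -0.87 and *Tnfsf9* at 0.78 lie past them.

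The spread of log2 ratios at matching levels puts these values in context. Of the 754 genes at a mean RPKM of 100 to 500, the central 95% lay between -0.47 and 0.31. *Tnfrsf4* was below this range, while *Tnfrsf18* at -0.45 and *Tnfrsf9* were inside it. For 1979 genes at 20 to 50 the range was -0.48 to 0.40, and *Cd27* and *Tnfrsf1b* were inside it. For 3555 genes at 5 to 20 it was -0.69 to 0.50, with *Tnfsf9* above it and *Cd28* inside it, and for 910 genes at 50 to 100 it was -0.41 to 0.39, with *Icos* inside it.

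The GC content of the transcript also moves with the log2 ratio in these libraries. Genes within 1 percentage point of the GC content of *Cd28* (41.2%) and *Icos* (43.0%) had a median log2 ratio of 0.23 and 0.18, whereas those around *Tnfrsf4* (55.0%) were at -0.098. After subtracting the median of the GC bin of each gene, *Cd28* and *Icos* were at -0.45 and -0.46, further from 0 than as deposited. *Tnfrsf4* was then at -0.77 and *Tnfsf9* at 0.85, both still past 1.5-fold. *Tnfrsf18* was at -0.35, *Cd27* at -0.34, *Tnfrsf9* at -0.16 and *Tnfrsf1b* at 0.17.

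**Figure D3:**
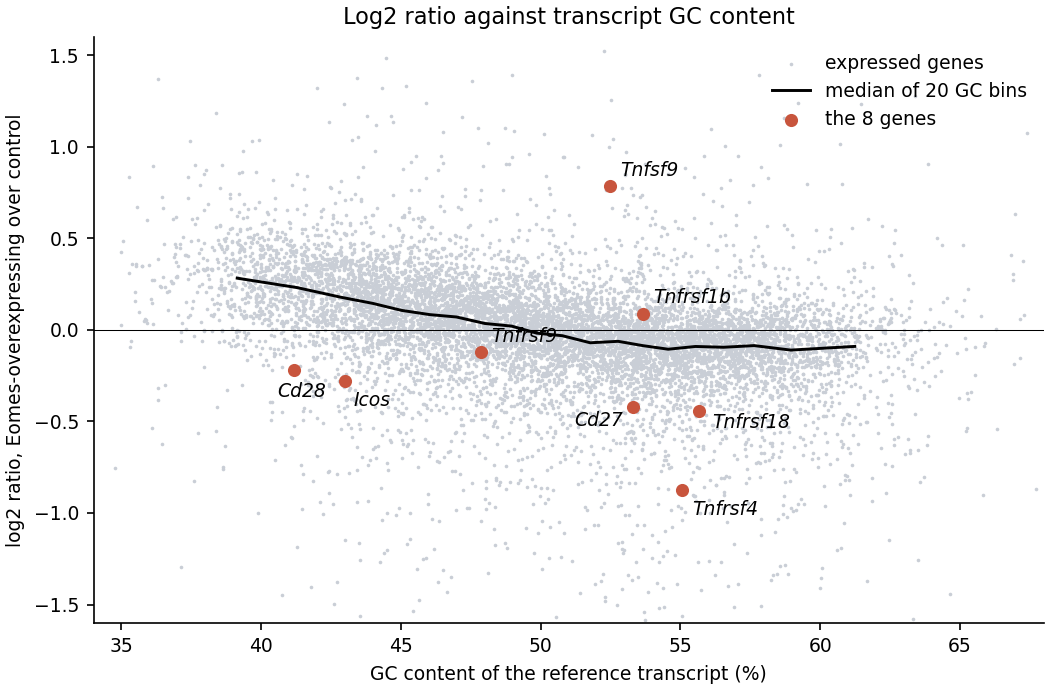
Log2 ratio of Eomes-overexpressing over control (vertical) against the GC content of the reference transcript in percent (horizontal) for the expressed genes (grey) and the 8 genes (red), with the median of 20 GC bins as a line. Genes outside the axes are not drawn, and *Cd28* and *Icos* sit under the line, at -0.22 and -0.28.

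The labelled cell type was checked by markers. Of 7 markers of CD8 T cells, 6 passed an RPKM of 1 in each library and *Trac* was not listed. Their summed RPKM was 1062.1 in the control library and 800.9 in the Eomes library. *Cd8a* was at 181.8 and 99.1, a log2 ratio of -0.88, and the 6 markers ranged from -0.88 to -0.053 with a median of -0.34. The markers were lower alongside most of the costimulatory receptors, and their part in that result was not tested. Of 3 markers of CD4 and regulatory T cells, *Zbtb7b* was at 13.79 and 11.61, while *Cd4* was at 0.03 and 0.08 and *Foxp3* at 0.09 and 0.07. The summed RPKM was 2.87 and 1.62 for 5 B cell markers, of which *Cd79b* was at 2.79 and 1.56 and *Ms4a1* and *Pax5* were not listed, and 4.12 and 3.19 for 10 markers of macrophages and dendritic cells, of which 4 (*Csf1r*, *Lyz2*, *Adgre1* and *Clec9a*) were not listed and *Cd14* (1.39 and 1.12) and *Xcr1* (1.79 and 1.11) were above an RPKM of 1. In RNA of a whole culture, fewer cells that express a gene and less RNA per cell cannot be told apart.

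In the order of levels of the 19 expressed receptors of the TNF receptor superfamily, *Tnfrsf9*, *Tnfrsf4* and *Tnfrsf18* took places 1, 2 and 3 in control. In Eomes-overexpressing cells *Tnfrsf4* was at place 4, behind *Tnfrsf8*, which encodes CD30 and had an RPKM of 123.1 and 129.9. The 5 receptors held 78.2% of the summed RPKM of the 19 in the control library and 73.4% in the Eomes library. Among the other 14 expressed receptors (of 23 in the list), 1 was more than 1.5-fold higher and 2 were lower, with a median log2 ratio of 0.018. Over all expressed genes the shares were 2.46% and 5.19%. *Tnfrsf21*, which encodes the death receptor DR6, was at 2.66 and 5.31 (log2 ratio 0.997). *Tnfrsf25*, which encodes DR3, a receptor that costimulates T cells, was at 1.71 and 0.46 (log2 ratio -1.89, interval -2.78 to -1.001), and *Fas* was at 2.76 and 1.44 (log2 ratio -0.94, interval -1.51 to -0.36).

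The ligands of the receptors were measured in the same cells. *Tnfsf4*, which encodes OX40L, was at 6.20 RPKM (control) and 4.56 RPKM (Eomes), a log2 ratio of -0.44 (interval -0.75 to -0.14). After centring by GC content *Tnfsf4* was at -0.62, past 1.5-fold. *Cd70* was at 2.90 and 3.03, and *Tnfsf18*, which encodes the GITR ligand, was at 0.02 in the control library and not listed in the Eomes library. The ligands of TNFR2 were abundant, with *Lta* at 425.0 and 486.8 and *Tnf* at 29.7 and 32.3, neither past 1.5-fold.

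Of the 10 other TNF ligands that were expressed (of 17 in the list), 2 were more than 1.5-fold higher and 2 lower, and their median log2 ratio was 0.040. The shares over all expressed genes were 2.46% and 5.19%. *Fasl*, the ligand of Fas, was at 13.8 and 27.1 (log2 ratio 0.97), and *Tnfsf10*, which encodes TRAIL, was at 2.84 and 4.99 (0.81). *Ltb*, which encodes lymphotoxin-beta, was at 197.2 and 117.6 (-0.75), and *Tnfsf8*, which encodes the CD30 ligand, was at 1.61 and 0.57 (-1.50). *Tnfsf9* was at place 5 of the 11 expressed ligands in both libraries.

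*Cd80*, a B7 ligand of CD28 and CTLA-4 that activated T cells can also carry, was at an RPKM of 43.8 and 28.6. Its log2 ratio of -0.61 (interval -0.73 to -0.49) is just past 1.5-fold, and its interval is not. *Cd86* (0.12 and 0.14) and *Icosl*, which encodes the ICOS ligand (0.62 and 0.99), stayed under an RPKM of 1. Among the inhibitory members of the CD28 family, the log2 ratio was -0.95 for *Ctla4* (RPKM 134.3 and 69.4), -1.45 for *Btla* (8.03 and 2.94) and -0.49 for *Pdcd1* (203.7 and 145.4). All 3 are below *Cd28* and *Icos* as deposited, but after centring by GC content *Pdcd1* was at -0.38, above the -0.45 of *Cd28* and the -0.46 of *Icos*.

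Below the receptors, the signalling genes lay within 1.5-fold. Of them, 0 of 15 TRAF adaptors and associated genes, 0 of 16 NF-kappaB genes and 0 of 18 genes of CD28 and ICOS signalling were past 1.5-fold. Over all expressed genes the share was 7.65%, and by band of mean RPKM from 5 to 500 it was 1.46% to 5.09%. In lists of this size, counts of 0 lie near these shares. Their median log2 ratios were -0.018, -0.030 and -0.0098, in the order of the lists. The lowest of the adaptors was *Traf1*, an NF-kappaB target that binds 4-1BB, at an RPKM of 51.6 and 35.5 (log2 ratio -0.54, interval -0.64 to -0.45). In the NF-kappaB list, *Nfkb2* (102.7 and 76.1), *Nfkbie* (10.0 and 7.47) and *Nfkbia* (58.6 and 45.1) were lowest, at -0.43, -0.42 and -0.38. The highest of the CD28 and ICOS genes was *Pik3r1*, a regulatory subunit of PI3 kinase, at 4.07 and 5.93 (0.54, interval 0.38 to 0.70). The intervals of *Traf1* and *Pik3r1* reach past 1.5-fold. The 5 genes named in this paragraph were named after their values were seen.

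Of 4 genes for RNA-binding proteins and nucleases linked to the decay of *Icos* or *Tnfrsf4* mRNA or related transcripts, 1 was past 1.5-fold. The share over all expressed genes was 7.65%. *Zc3h12d* was at an RPKM of 18.04 and 9.85, a log2 ratio of -0.87 (interval -1.002 to -0.75). *Zc3h12a*, which encodes Regnase-1, was at 21.8 and 20.5, and the Roquin genes *Rc3h1* and *Rc3h2* were within 1.5-fold as well.

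**Figure D4:**
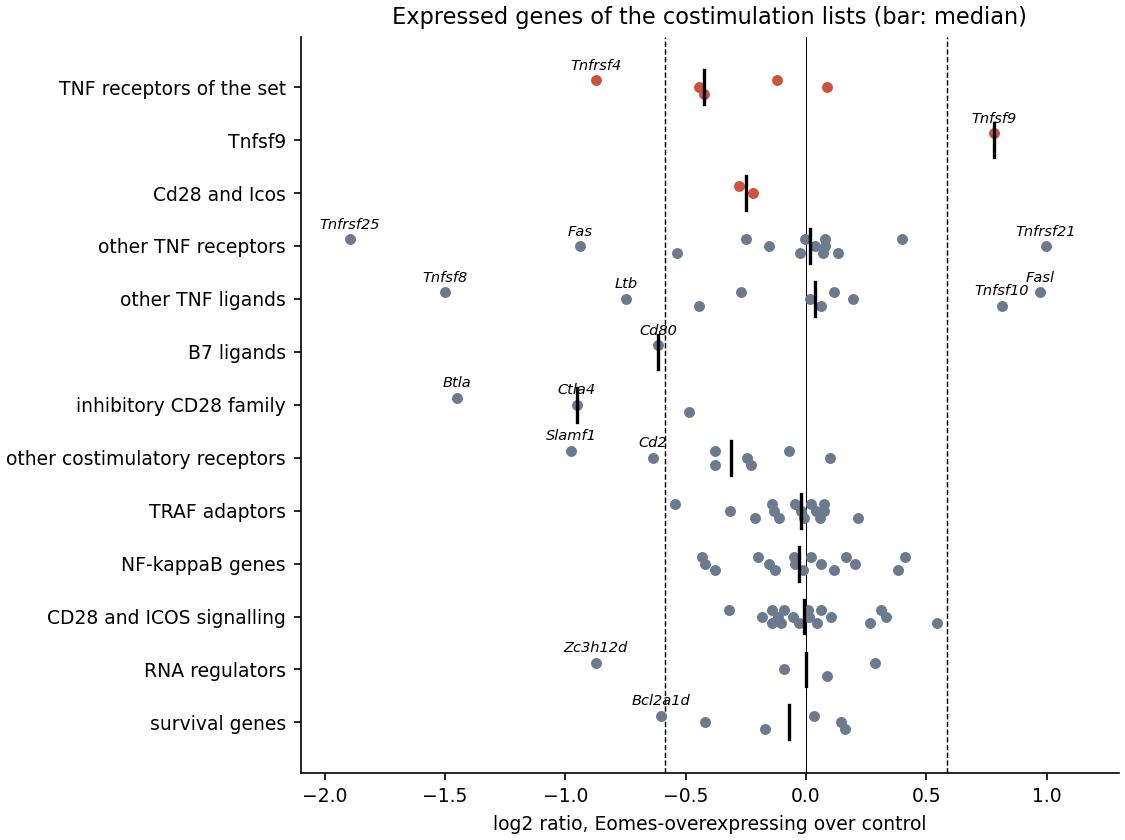
Log2 ratio of Eomes-overexpressing over control (horizontal) for every expressed gene of the costimulation lists (rows; 1 point per gene, the 8 genes in red), with the list median as a bar and dashed lines at 1.5-fold. The 3 signalling lists have no gene past the lines. The share was 7.65% of all expressed genes and 1.46% to 5.09% by band of mean RPKM from 5 to 500. In lists of this size, having no such gene lies near these shares. Receptors and ligands lie on both sides.

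Several of the genes sit in clusters of related genes, so the 3 listed genes on either side of each were read from the annotation. The 23 expressed neighbours outside the 8 genes had a median log2 ratio of 0.063. Of them, 0 were more than 1.5-fold higher (2.46% of all expressed genes) and 2 lower (5.19%). The 2 were *Ctla4*, which lies between *Cd28* and *Icos*, and *C1qtnf12*, whose start is 51.5 kb from that of *Tnfrsf4* (RPKM 9.02 and 4.55, log2 ratio -0.99). *Ctla4* thus was lower than the genes on both sides of it, at -0.95 against -0.22 and -0.28. Next to the tandem pair, *Sdf4* was at 164.0 and 124.2 (-0.40) and *B3galt6* at 4.17 and 4.56 (0.13).

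*Tapbpl*, whose start is 5.15 kb from that of *Cd27*, was at 43.5 and 29.6 (log2 ratio -0.56), while *Tnfrsf1a* on the other side was at 11.8 and 11.6 (-0.026). Beside *Tnfsf9*, the ligand genes *Cd70* and *Tnfsf14* had log2 ratios of 0.063 (interval -0.55 to 0.67) and -0.27 (interval -0.63 to 0.087), both below the 0.78 of *Tnfsf9*. *Tnfrsf8*, beside *Tnfrsf1b*, was at 0.078 against 0.087. *Park7*, whose start is 0.125 kb from the annotated start of *Tnfrsf9* on the opposite strand, was at 208.9 and 226.1 (0.11). That annotated start is not the RefSeq start of the *Tnfrsf9* window shown above, which lies inside the annotated gene.

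**Figure D5:**
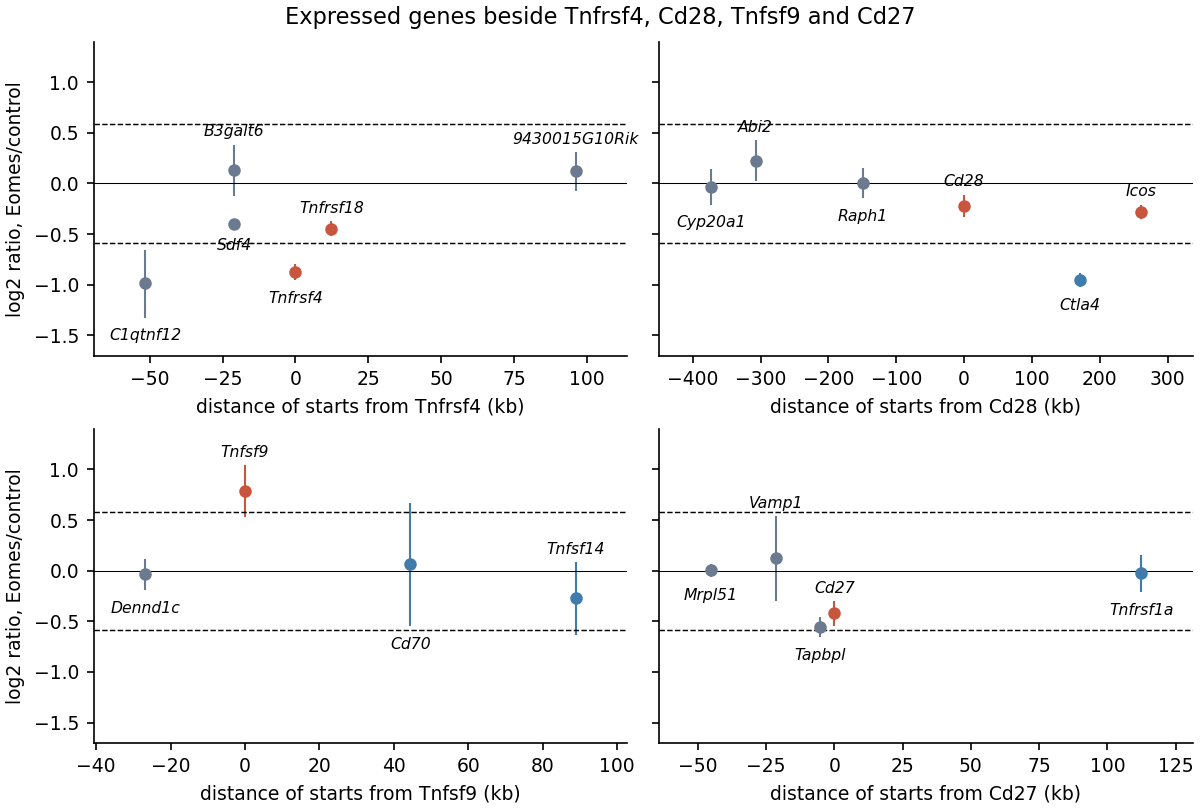
Log2 ratio of Eomes-overexpressing over control (vertical, with 95% counting intervals) for the expressed genes beside *Tnfrsf4*, *Cd28*, *Tnfsf9* and *Cd27*, against the distance between gene starts in kb (horizontal). Red marks the 8 genes, blue related receptors and ligands and grey other genes, and dashed lines 1.5-fold. *Ctla4* at -0.95 lies under both *Cd28* and *Icos*, and *Tnfsf9* at 0.78 above its neighbours.

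Over the 2 log2 levels, the most similar of 95 expressed list genes was *Ltb* for *Tnfrsf4*, *Lck* for *Tnfrsf9*, *Bcl2l1* for *Tnfrsf18*, *Vav1* for *Tnfrsf1b* and *Cd80* for *Cd27*. It was *Pik3r2* for *Tnfsf9*, *Bcl10* for *Cd28* and *Nfkbia* for *Icos*. A gene near in level can still differ in log2 ratio. *Pik3r2* was at 0.27 against 0.78 for *Tnfsf9*, and *Bcl2l1* at -0.17 against -0.45 for *Tnfrsf18*. The other pairs lay closer in log2 ratio. The distances ran from 0.058 for *Cd28* to 0.45 for *Tnfrsf9* on the log2 scale, and with 2 libraries they describe level and ratio only.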

How the data were processed

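RNA of 2 cultures of OT-I cells, control and Eomes-overexpressing, was sequenced as 1 library each. The authors filtered reads with SOAPnuke, mapped them with HISAT (HISAT2 in the submitters' processing notes) and Bowtie2 to mm10 and computed expression with RSEM; versions, gene annotation, strand setting and normalization between libraries are not given in the sources used here. The authors deposited FPKM values with 2 decimals from 0.01 upward, named RPKM in the methods. Symbols turned into dates (20 and 19) were left out.

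Log2 ratios used values not listed as 0.01 (Python 3.11.15, numpy 2.4.6, pandas 2.3.3, scipy 1.17.1, matplotlib 3.10.9). Depth was the number at which low values times GENCODE M21 transcript length came closest to whole reads (413 and 423 genes of 400 to 1500 bases, giving 19090000 and 19080000 reads). Approximated reads gave exact binomial (Clopper-Pearson) intervals for ratios, exact Poisson intervals for levels and normal intervals for differences of log2 ratios. They depend on the transcript length: with the shortest coding transcript, *Tnfrsf9* was at -0.18 to -0.062 and *Icos* at -0.42 to -0.14. The steps were tested on simulated data. Group labels came from the sample titles. Alternatives changed the pseudocount, scaling, GC centring, minimum RPKM and fold threshold. A planned search of protein motifs was not run. Members and lists were chosen with earlier results of these data known. All 8 genes were named. Of the other lists, genes past 1.5-fold, ligands and family partners, and neighbours were named.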

Additional observations from a re-analysis of the deposited data

How the results depend on the processing

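The log2 ratios of the 8 genes were recomputed with a pseudocount of 0.1 or 1, with scaling to TPM, to the median or to a trimmed mean, and with centring by GC content. All 8 kept their sign under these 6 alternatives, and *Tnfrsf4* (-0.87 to -0.77) and *Tnfsf9* (0.71 to 0.85) stayed past 1.5-fold. Only centring by GC content moved a value by more than its counting interval, for *Tnfrsf4* to -0.77, *Tnfrsf18* to -0.35, *Tnfrsf1b* to 0.17, *Cd28* to -0.45 and *Icos* to -0.46. At a 2-fold threshold 0 of the 8 genes were lower and 0 higher. Without a minimum RPKM, 2088 genes were more than 1.5-fold lower and 1356 higher, against 515 and 244, and with a minimum of 5 it was 213 and 95. A pseudocount of 1 gave 285 and 118, and a 2-fold threshold 175 and 69. Of the other TNF receptors, 6 were lower and 2 higher without a minimum, and 0 lower with a minimum of 5. With centring by GC content 3 were lower, against 2 as deposited. Of the other TNF ligands, 5 were lower without a minimum, 1 with a minimum of 5, and 3 with centring by GC content, against 2 as deposited. At 2-fold, *Btla* was the only inhibitory CD28 family receptor that stayed past the threshold. No paired analysis was possible because each condition has 1 library, and no library could be left out. Of the 8 genes, *Tnfsf9* had the widest counting interval.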

Other observations

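Among costimulatory receptors of other families, 8 of 12 were expressed, with a median log2 ratio of -0.31. Of these 8, 0 were more than 1.5-fold higher (2.46% of all expressed genes) and 2 lower (5.19%). *Cd2*, an adhesion and costimulatory receptor that binds CD48, was at 265.3 RPKM (control) and 170.9 RPKM (Eomes) (log2 ratio -0.64). Its partner *Cd48* was at 89.1 and 95.6 (0.10). *Slamf1* was at 5.05 and 2.57 (-0.97, interval -1.29 to -0.67).

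The partner and the genes within 1.5-fold given here were named after their values were seen. Of 6 expressed survival genes linked to costimulation, 1 was past 1.5-fold, beside a share of 7.65% over all expressed genes. *Bcl2a1d* was at 87.4 and 57.5 (log2 ratio -0.60), and *Bcl2a1b*, a near-identical copy that may share its reads, at 97.2 and 72.6 (-0.42). *Bcl2l1*, which encodes BCL-XL, was at 129.7 and 115.2 (-0.17) and *Bcl2* at 20.7 and 23.1 (0.16). Of 4 NK cell markers, *Klrb1c*, which encodes NK1.1, was at 0.31 and 5.74, whereas *Ncr1* and *Klra8* were not listed.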
